A study of Mus musculus with 20 samples.

Results

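Small nucleolar RNAs (snoRNAs) were taken from the count table as the genes whose Ensembl identifier maps to a symbol starting with Snord, the C/D type, or Snora, the H/ACA type, and whose reads summed to at least 20 over all libraries. Of 51826 genes, 141 carried such a symbol and 65 met the count rule, 46 of them C/D and 19 H/ACA. The other snoRNA genes held few or no reads: 70 had a count of 0 and 6 had 1 to 19 counts. Just inside the rule were Snora5c with 28 counts and Snord61 with 31, and just outside were Snora36b and one of the Snora16a entries with 10 counts each.

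The libraries came from total RNA of mouse sarcoma tissue: 6 primary tumours and 14 lung metastases, each metastasis matched by its title with a primary tumour. There were 4 metastases in set 1, 4 in set 2, 2 in set 3, 2 in set 6 and 1 in each of sets 4 and 5. A metastasis is named by its set and its number in the title (3-2 belongs to set 3), and that of set 5, which has no number, is called 5-x. All 20 samples carry the same genotype label, Mixed background, and the labels name no engineered allele, strain, treatment, age or time of collection. Whether metastases of the same set came from the same animal is not given in the labels, so the p-values rest on the variation among samples that may be related.

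Library totals ran from 20603620 to 36824370 counts, of which the snoRNAs took 0.00715% to 0.17%. Summed markers of mesenchyme, 6 collagen and receptor genes, were abundant in primary tumours (5931 to 16832 CPM, counts scaled to library size) and in metastases (2484 to 9572 CPM). Lung epithelial markers (10 genes, among them the surfactant proteins) summed to 0.814 to 187 CPM in primary tumours and 93.2 to 12972 CPM in metastases, and 10 of 10 rose. Skeletal muscle markers (10 genes) summed to 1.94 to 9574 CPM in primary tumours and 12 to 3264 CPM in metastases, and 7 fell. Of the blood cell markers, 5 of 5 erythroid genes rose (a median sum of 44.3 CPM in primary tumours and 2280 CPM in metastases), 4 of 6 neutrophil genes rose (15.4 and 88.4 CPM), and 4 of 8 T and natural killer cell genes fell (39.7 and 3.71 CPM). The part of these blood cell markers in the snoRNA results was not tested. The libraries of primary tumour 4, metastasis 4-1 and metastasis 3-2 stood apart from the other 17 by very low Rmrp, the RNA of the ribonuclease MRP complex: 23.1, 32.2 and 108 CPM against 714 to 9571 CPM. These 3 libraries are given separately wherever they bear on a result.

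As background, snoRNAs are short noncoding RNAs of the nucleolus that in mammals are mostly cut out of the introns of host genes, many of which encode ribosomal or translation proteins. C/D RNAs carry the C and D boxes, bind fibrillarin, Nop56, Nop58 and Snu13, and mainly guide ribose methylation of ribosomal RNA; H/ACA RNAs fold into hairpins ending in an ACA triplet, bind dyskerin, Nhp2, Nop10 and Gar1, and mainly guide pseudouridylation. A few act in the cleavage of the ribosomal RNA precursor instead, among them U17 (Snora73a and Snora73b) and U8 (Snord118), while Snord13 assists acetylation of the small-subunit ribosomal RNA.

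The sequences of 10 snoRNAs on which the results turn are shown as annotated in GENCODE on the mm10 (GRCm38) build, each 5′ to 3′ on its own strand. Capitals mark the boxes found by a search of that strand only: TGATGA, the core of box C, upstream of the midpoint of a C/D RNA, the last CTGA, box D, in the final 20 bases of a C/D RNA, and ACA in the final 8 bases of an H/ACA RNA. The first 5 are the RNAs that passed the test in metastases.
Snord15a: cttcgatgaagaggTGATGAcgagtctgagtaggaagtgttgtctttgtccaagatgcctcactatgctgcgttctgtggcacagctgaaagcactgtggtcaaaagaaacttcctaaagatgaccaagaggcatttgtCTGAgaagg
Snord49b: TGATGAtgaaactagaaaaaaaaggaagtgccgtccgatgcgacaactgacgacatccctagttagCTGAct
Snord118: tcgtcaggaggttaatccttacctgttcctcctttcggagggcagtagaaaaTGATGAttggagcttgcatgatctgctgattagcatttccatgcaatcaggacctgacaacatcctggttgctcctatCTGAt
Snora21: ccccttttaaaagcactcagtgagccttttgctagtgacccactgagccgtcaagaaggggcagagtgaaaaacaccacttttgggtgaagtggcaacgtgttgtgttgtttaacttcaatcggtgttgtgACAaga
Snora2b: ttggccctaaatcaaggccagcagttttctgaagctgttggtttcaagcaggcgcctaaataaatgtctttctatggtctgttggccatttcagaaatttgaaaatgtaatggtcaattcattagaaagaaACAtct
The next 3 are GC-rich RNAs that were lowest in the 3 libraries of low Rmrp.
Snora73b: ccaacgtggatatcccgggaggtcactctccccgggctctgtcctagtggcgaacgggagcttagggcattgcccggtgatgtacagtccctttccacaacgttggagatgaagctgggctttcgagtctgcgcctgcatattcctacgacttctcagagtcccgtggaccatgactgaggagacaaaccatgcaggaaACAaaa
Snora78: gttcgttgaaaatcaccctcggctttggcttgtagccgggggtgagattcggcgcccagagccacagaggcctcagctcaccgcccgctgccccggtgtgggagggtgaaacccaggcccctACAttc
Snora57: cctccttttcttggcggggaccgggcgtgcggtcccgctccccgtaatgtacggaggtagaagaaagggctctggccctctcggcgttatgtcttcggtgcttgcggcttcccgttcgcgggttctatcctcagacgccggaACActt
The last 2 are AT-rich C/D RNAs, chosen after their values were seen, that were highest in primary tumour 4 and metastasis 3-2.
Snord72: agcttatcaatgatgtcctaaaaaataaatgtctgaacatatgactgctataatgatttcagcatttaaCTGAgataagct
Snord70: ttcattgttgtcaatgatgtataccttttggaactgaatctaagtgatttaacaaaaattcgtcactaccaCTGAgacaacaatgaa
The 5 that passed lie at chr7:99482785-99482932 (minus strand, in an intron of Rps3), chr11:62603079-62603150 (plus strand, in 2410006H16Rik), chr11:69073427-69073561 (plus strand, in no annotated host), chr11:97781639-97781775 (minus strand, in Rpl23) and chr15:98526346-98526482 (minus strand, in Kansl2). Of these, Snora2b overlaps an annotated exon of another gene on the same strand, not checked to be its host, and the other hosted RNAs lie in introns. The GC-rich RNAs lie at chr4:132352322-132352526 (minus strand, in Rcc1), chr17:24719676-24719803 (minus strand, in Snhg9) and chr19:8888538-8888685 (minus strand, in no annotated host). Snord72 lies at chr15:5118404-5118484 (plus strand, in Rpl37) and Snord70 at chr1:59691934-59692020 (plus strand, in Nop58).

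Over all 141 snoRNA genes, with or without reads, the boxes followed the symbols. TGATGA stood upstream of the midpoint in 74 of 99 C/D genes and in 0 of 42 H/ACA genes, and CTGA in the final 20 bases in 97 of 99 and 5 of 42. ACA was in the final 8 bases of 40 of 42 H/ACA genes and of 7 of 99 C/D genes. Snord72 and Snord70 have no exact TGATGA in that window, which says only that these letters are not there. Among the 65 snoRNAs that met the count rule, the C/D RNAs were shorter (median 79.5 bases, range 64 to 238) than the H/ACA RNAs (median 137, range 128 to 205). Their median GC content was similar, at 45.9% and 47.7%.

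Whether a snoRNA gene had reads went with its place relative to other annotated exons. All 54 genes at 0 counts outside the Snord116 cluster overlapped an exon of another gene on the same strand, against 11 of the 65 snoRNAs with reads (16.9%). The 16 remaining genes at 0 counts were Snord116 copies, from the imprinted cluster in Snhg14, and none of these overlapped such an exon. Snord116l12, chosen after its value was seen, had 2 counts, and no snoRNA of the Snord113 to Snord116 clusters or Snord64 reached the count rule. How the counting treated reads shared by overlapping genes is not stated in the labels, and a count of 0 is therefore no measure of an absent snoRNA.

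A few snoRNAs held most of the reads. Snora73b had 163624 of 305642 snoRNA counts (53.5%), Snord17 had 60435 (19.8%) and Snora78 had 23682 (7.75%). The 19 H/ACA RNAs together took 71.3% of the counts and the 46 C/D RNAs 28.7%. Scaled per length, Snora73b averaged 1299 CPM per kilobase, Snord17 averaged 434 and Snora78 averaged 295, while the median over all 65 was 6.12 CPM per kilobase; the medians of the C/D class (6.17) and of the H/ACA class (5.05) were close. The H/ACA share was therefore carried by a few RNAs and not by the typical one. Snora73a, the neighbouring U17 copy, is identical to Snora73b at 198 positions with 7 mismatches (96.6%) but had 306 counts, and reads that the copies share may have been split or dropped, so both values are uncertain.

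In every library outside the 3 of low Rmrp, the H/ACA RNAs summed to more than the C/D RNAs, 1.55 to 5.52 times as much. In those 3, the ratio was 0.579 in metastasis 3-2, 0.668 in primary tumour 4 and 1.27 in metastasis 4-1. Summed C/D levels had a lowest, median and highest value of 51.4, 103 and 118 CPM in the 6 primary tumours and 53.3, 139 and 643 CPM in the 14 metastases. Summed H/ACA levels were 38.3, 222 and 323 CPM in primary tumours and 62.6, 384 and 999 CPM in metastases. The ranges of the groups overlapped for both classes, and metastasis 3-1 was the highest library for each. As a description with no test, the mean CPM of a set's metastases was above its primary tumour in 6 of 6 sets for H/ACA RNAs. The difference was 0.89 ± 0.41 on the log2 scale (SD, n = 6 sets). For C/D RNAs it was 0.72 ± 0.72, positive in 5 of 6 sets. In set 3 the H/ACA rise rests on metastasis 3-1, at 999 CPM, beside 62.6 CPM in metastasis 3-2 and 263 CPM in the primary tumour. Counts of sets for single snoRNAs below use means of log2 CPM instead. Without the 3 libraries, which leaves 5 sets, the mean differences were 1.09 and 1.04, positive in 5 of 5 sets for each class. Without metastasis 3-1, set 3 rests on metastasis 3-2 alone and was -2.07 for H/ACA and -0.13 for C/D RNAs. The mean differences were then 0.38 ± 1.26 for H/ACA (5 of 6 sets positive) and 0.42 ± 0.61 for C/D RNAs (4 of 6 sets; SD). In bulk tissue, more cells of a type and more RNA per cell cannot be told apart.

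**Figure D1:**
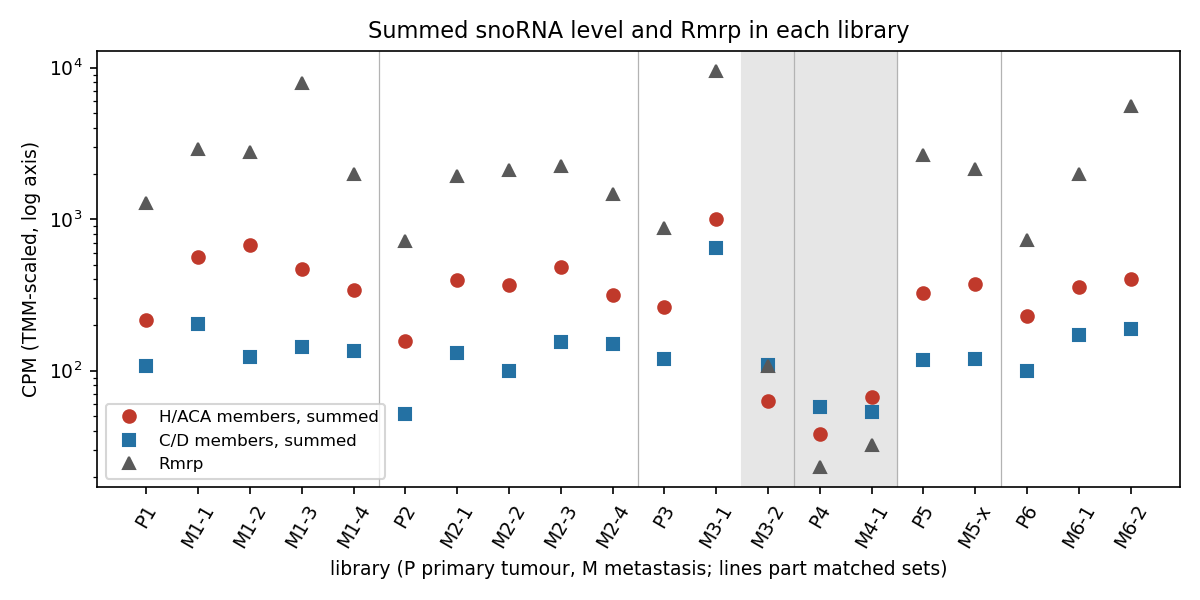
Summed level of the 19 H/ACA snoRNAs (red circles), the 46 C/D snoRNAs (blue squares) and of Rmrp (grey triangles) in each of 20 libraries, in CPM on a log axis; thin lines part the matched sets and grey shading marks the 3 libraries of low Rmrp. H/ACA lies above C/D in all 17 other libraries and in metastasis 4-1, and Rmrp falls to 23.1 to 108 CPM in the shaded libraries.

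Lung metastases were then compared with primary tumours gene by gene, with the matched set as a block. Of 48 snoRNAs with enough reads to be tested, 5 rose in metastases and 0 fell (edgeR quasi-likelihood test, Benjamini-Hochberg adjusted p under 0.05 over 18452 genes): the C/D RNAs Snord15a, Snord49b and Snord118 and the H/ACA RNAs Snora21 and Snora2b. That is 10.4% of the snoRNAs tested, and 7.34% of all genes tested were called higher and 6.44% lower, so the share of snoRNAs called higher was near the background. DESeq2 called 10 of 64 snoRNAs higher, beside 11.7% of all genes. In all, 35 of the 48 log2 fold changes were positive and 13 negative. The median log2 fold change was 0.43 over the 48, 0.20 over 34 C/D and 0.84 over 14 H/ACA RNAs, beside -0.00032 over all genes. At an unadjusted p under 0.05, 15 snoRNAs were higher and 0 lower, beside 14.7% of all genes higher.

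Snord15a, a C/D guide RNA hosted by the ribosomal protein gene Rps3, had a lowest, median and highest level of 2.65, 5.02 and 5.55 CPM in primary tumours and 6.14, 9.50 and 23.5 CPM in metastases. Every metastasis lay above every primary tumour. Its log2 fold change was 1.17 ± 0.30 (SE; n = 6 and 14; edgeR adjusted p = 0.0171), higher in 6 of 6 sets.

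Snord118, the U8 RNA needed for maturation of the large-subunit ribosomal RNAs, was measured at 0.432, 1.14 and 1.66 CPM in primary tumours and 1.36, 2.83 and 13.7 CPM in metastases. The groups overlapped narrowly, through primary tumours 1 and 5, and both metastases of set 3 were highest, at 13.7 and 8.58 CPM. The difference was 1.71 ± 0.45 (SE) on the log2 scale, with an edgeR adjusted p of 0.0192, and was positive in 6 of 6 sets, from 0.34 in set 5 to 3.14 in set 3.

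Snord49b, a short C/D RNA in the noncoding host 2410006H16Rik, was found at 0.102, 0.545 and 0.856 CPM in primary tumours and 0.795, 1.13 and 3.28 CPM in metastases (log2 fold change 1.37 ± 0.34, SE; edgeR adjusted p = 0.0155; higher in 6 of 6 sets). The groups overlapped by a narrow margin, and primary tumour 4 gave the lowest value. The same host carries Snord49a and Snord65, whose log2 fold changes of -0.26 and 0.11 did not pass.

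Among the H/ACA RNAs, Snora2b, in Kansl2, had 0.554, 0.815 and 1.73 CPM in primary tumours and 0.873, 2.24 and 5.07 CPM in metastases. Its log2 fold change was 1.45 ± 0.36 (SE; edgeR adjusted p = 0.0158; higher in 6 of 6 sets). Snora21, in the ribosomal protein gene Rpl23, had 0.611, 1.56 and 2.45 CPM in primary tumours and 1.59, 3.29 and 9.55 CPM in metastases. Its log2 fold change was 1.28 ± 0.37 (SE; edgeR adjusted p = 0.0322; higher in 5 of 6 sets, and -0.26 in set 5). Both overlapped between the groups, Snora21 through primary tumours 3, 5 and 6 and Snora2b through primary tumours 4, 5 and 6.

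**Figure D2:**
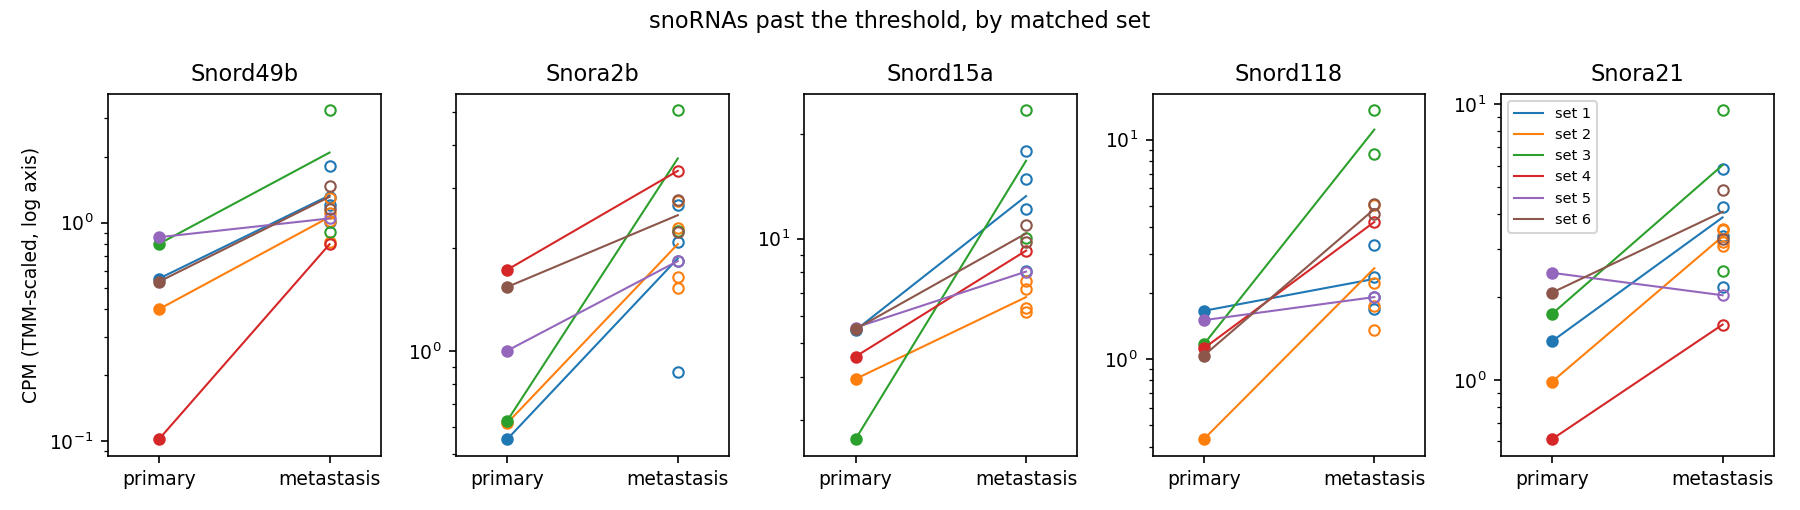
Level in CPM (log axis) of the 5 snoRNAs past the threshold, in primary tumours (filled points) and metastases (open points); each colour is a matched set and each line runs from the primary tumour to the mean of its metastases. All lines rise except that of set 5 for Snora21, and the set 3 line ends highest in all 5 panels.

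Other abundant snoRNAs did not pass. Snora73b, the most abundant, was 1.02 ± 0.50 (SE; edgeR adjusted p = 0.188), from 4.22, 171 and 256 CPM in primary tumours to 15.1, 291 and 753 CPM in metastases. Snord17 was 1.16 ± 0.39 (SE; edgeR adjusted p = 0.0603) and Snora57, which lies in no annotated host, was 1.31 ± 0.43 (SE; edgeR adjusted p = 0.0549). In both groups the lowest values of Snora73b belonged to the libraries of low Rmrp. Snora78 was 1.24 ± 0.57 (SE; edgeR adjusted p = 0.163) and Snora23 was 0.94 ± 0.40 (edgeR adjusted p = 0.128). Snora17 (0.51), Snord13 (1.56), Snord104 (0.79) and Snord83b (0.61) had edgeR adjusted p-values from 0.151 to 0.182.

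Without the 3 libraries of low Rmrp, 10 of 48 snoRNAs rose, beside 9.28% of all genes tested: the same 5 and also Snora57, Snora73b, Snora78, Snord104 and Snord17. Snora73b was then 1.06 ± 0.27 (SE; edgeR adjusted p = 0.0194) and Snora78 was 1.46 ± 0.33 (SE; edgeR adjusted p = 0.0114). The count moved with each set but set 4. Without set 2, 0 passed by edgeR, beside 3.72% of all genes, and without set 1 only Snord118 did, beside 3.09%. At an unadjusted edgeR p under 0.05, 9 were higher without set 2. The share of all genes at that unadjusted threshold is given here only for the main fit (14.7% higher). Without sets 3, 5 and 6 in turn, 10, 8 and 3 passed, beside 8.93%, 6.89% and 4.17% of all genes. When the metastases of each set were summed, 0 passed by edgeR, beside 1.69% of all genes. In that fit 10 were higher at an unadjusted edgeR p under 0.05, a threshold the 1.69% does not use. With the mean level of lung epithelial markers as a covariate only Snord118 passed (2.42 ± 0.67, SE; edgeR adjusted p = 0.0462), beside 3.46% of all genes called higher. With skeletal muscle markers as the covariate 8 passed, beside 15.8% of all genes. Scaling to the summed snoRNA counts applies the same factor to every gene of a library, though single log2 fold changes moved by unequal amounts. The median became -0.72 over all genes and -0.29 over the snoRNAs. The place of the snoRNAs relative to the median gene is therefore not tested by this scaling.

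Of the 34 distinct host genes tested along with a snoRNA of theirs, 2 rose in metastases and 1 fell, beside 7.34% of all genes called higher and 6.44% lower. Neither share of hosts was above that of all genes. An annotated host on the same strand held 59 of the 65 snoRNAs, in 47 distinct genes, of which 11 ribosomal protein genes held 16. Over 43 snoRNAs tested together with their host, 26 pairs had the same sign, 13 had a higher snoRNA and a lower host, and the snoRNA's log2 fold change lay above that of its host in 32. Across these pairs, several of which share a host, Spearman's rho was 0.25 and Pearson's r 0.29; this is across genes, which are not independent replicates. Kansl2, a subunit of the NSL acetyltransferase complex, rose by 0.86 ± 0.20 (SE; edgeR adjusted p = 0.0102) along with Snora2b, and the noncoding Snhg9, host of Snora78, rose by 1.94 ± 0.53 (SE; edgeR adjusted p = 0.0259).

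Rpl13a, a ribosomal protein gene, was the host that fell, by 0.99 ± 0.24 on the log2 scale (SE; edgeR adjusted p = 0.0141). Its 3 tested snoRNAs, Snord32a, Snord34 and Snord35a, had log2 fold changes of -0.11, 0.35 and -0.22, none past the threshold. The other hosts of the snoRNAs named here had values of -0.52 for Rps3 (Snord15a), -0.04 for Rpl23 (Snora21), 0.33 for 2410006H16Rik (Snord49b) and -0.25 for Rcc1 (Snora73b), none past the threshold. For Snx5 (Snord17), Ipo7 (Snora23), Rpl3 (Snord83b) and Eef1b2 (Snora41) the log2 fold changes were -0.58, -0.78, 0.56 and -0.11. Reads of host RNA and of the snoRNA itself cannot be told apart in these counts, also for Snora2b, which overlaps an annotated exon on its strand.

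**Figure D3:**
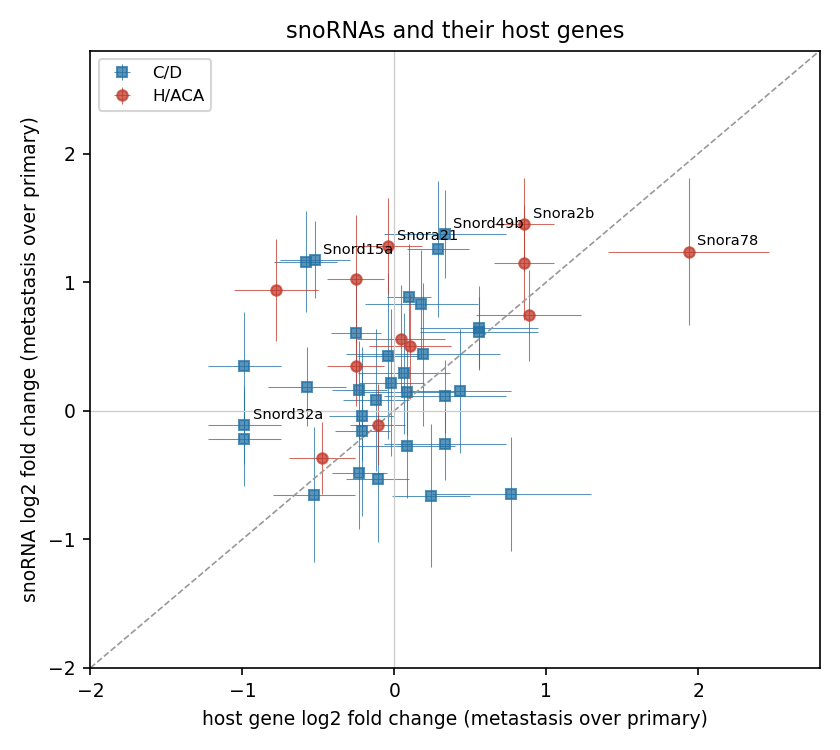
Log2 fold change (metastasis over primary tumour) of 43 snoRNAs against that of their host genes, C/D as blue squares and H/ACA as red circles, with standard errors as bars and the line of equal change dashed. 32 points lie above the dashed line, and Snora78 and Snora2b stand at the right with hosts that rose.

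The proteins that build snoRNA particles showed 1 call, a share not above the 7.34% of all genes called higher. Of 22 genes tested, Rpap3, a subunit of the R2TP assembly chaperone, rose by 1.03 ± 0.19 (SE; edgeR adjusted p = 0.00381; higher in 6 of 6 sets), from 23.0 ± 5.56 CPM (SD, n = 6) to 46.9 ± 11.2 CPM (SD, n = 14), and 0 fell. The catalytic core proteins did not pass: fibrillarin (Fbl) was -0.58 ± 0.28 and dyskerin (Dkc1) -0.13 ± 0.21 on the log2 scale. Ruvbl2, an ATPase of the same chaperone system, was -0.72 (edgeR adjusted p = 0.108; unadjusted p = 0.0229) and Znhit3 was 0.36 (edgeR adjusted p = 0.147).

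Of 14 other small structured RNAs tested, 2 rose, both guide RNAs of Cajal bodies: Scarna6 by 1.18 ± 0.23 (SE; edgeR adjusted p = 0.00432) and Scarna17 by 1.05 ± 0.26 (SE; edgeR adjusted p = 0.0146). Those without a call included Rmrp at 1.47 ± 0.67 (SE; edgeR adjusted p = 0.160), Rpph1, the ribonuclease P RNA, at 1.59 ± 0.81 (SE; edgeR adjusted p = 0.209), Rn7sk at 0.46 (edgeR adjusted p = 0.238) and the telomerase RNA Terc at 0.96 (edgeR adjusted p = 0.378). In all, 13 of the 14 values were positive, with a median of 0.71, beside -0.00032 over all genes. Of all genes tested, 7.34% were called higher, and the 2 calls were not tested against that share.

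Differences between tumours were tested by edgeR's F test over 19919 genes in the 12 metastases that share a set with another metastasis (sets 1, 2, 3 and 6). Of 53 snoRNAs tested, 0 passed, beside 0.321% of all genes, and 15 had an unadjusted p under 0.05, beside 29.5% of all genes. A likelihood ratio test in DESeq2 called 13, beside 22.7% of all genes in that test. The smallest p-values were those of Snora23, Snord118 and Snora41.

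Snora23, an H/ACA RNA in Ipo7, had 6.10 to 17.2 CPM in set 1 (n = 4), 3.60 to 10.2 in set 2 (n = 4), 21.7 and 100.04 in set 3, and 12.5 and 13.8 in set 6 (edgeR adjusted p = 0.058). Snord118 had 1.70 to 3.30 CPM in set 1, 1.36 to 5.06 in set 2, 8.58 and 13.7 in set 3, and 4.57 and 5.09 in set 6 (edgeR adjusted p = 0.0701). Both RNAs were highest in the 2 metastases of set 3. Snora41, in the translation factor gene Eef1b2, had 0.228 to 0.503 CPM in set 1, 0.340 to 0.477 in set 2, 0.983 and 1.27 in set 3, and 0.644 and 0.854 in set 6 (edgeR adjusted p = 0.0881). Sets 1 and 2 overlapped for each of these RNAs, and set 3 did not overlap with the others.

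Set 3 joins the library with the most snoRNA reads, metastasis 3-1, to a library of low Rmrp, metastasis 3-2. Without metastasis 3-1, 9 snoRNAs were called, beside 26.6% of all genes: Snora41, Snora57, Snora73b, Snora78, Snord104, Snord111, Snord66, Snord70 and Snord72. In that fit set 3 is metastasis 3-2 alone, assumed to vary like the other sets. Without metastasis 3-2, Snora23 and Snord17 were called, beside 0.24% of all genes, and without set 2, 3 were called (Snora23, Snord118 and Snord87), beside 12.2%. Tumour and library therefore cannot be told apart for set 3.

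A further pattern ran across libraries and followed base composition. In the 3 libraries of low Rmrp, GC-rich snoRNAs were low and AT-rich ones high. Snora78 (64.1% GC) had 0.102, 0.153 and 0.977 CPM in primary tumour 4, metastasis 4-1 and metastasis 3-2, against 14.4 to 93.2 CPM in the other 17. Snora73b (55.6% GC) had 4.22, 17.3 and 15.1 CPM against 120 to 753 CPM, and its share of the snoRNA counts was 4.41% to 14.4% instead of 39.5% to 71.4%. Snora57 (62.2% GC) had 0.102, 0.703 and 4.23 CPM against 6.57 to 50.6 CPM. None of the 3 libraries reached the lowest of the other 17 for any of these RNAs. In primary tumour 4, Snora78 and Snora57 rested on 2 counts each.

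At the other end, Snord72 (29.6% GC) had 7.84, 1.25 and 5.68 CPM against 0.367 to 2.62 CPM, and Snord70 (32.2% GC) had 3.97, 0.489 and 1.45 CPM against 0.0682 to 0.938 CPM. Primary tumour 4 and metastasis 3-2 exceeded all other libraries for both RNAs, and metastasis 4-1 did not. Of all 65 snoRNAs, 9 lay in all 3 libraries below all 17 others, 5 C/D and 4 H/ACA, and 4 lay above. Of the 48 snoRNAs tested, these were 9 and 2, and of all genes tested 17.6% lay below and 6.77% above, so the snoRNA count below was near the background.

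The difference in median log2 CPM between the 3 and the 17 libraries, given as a description with no test, ran from -7.33 for Snora78 to 2.94 for Snord72. Its median was -1.31 over 22 snoRNAs of at least 50% GC, -0.04 over 15 between 45% and 50%, and 1.12 over 28 under 45%. Across the 65 snoRNAs, Spearman's rho with GC content was -0.76, with -0.73 in C/D and -0.78 in H/ACA RNAs, while rho with length was -0.07. The points share libraries, depth and base composition. The class medians of the difference were 0.19 for C/D and 0.05 for H/ACA RNAs.

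This was not particular to snoRNAs. Over 18414 genes tested, rho between this difference and the GC content of the longest transcript was -0.79. By library, rho between GC content and deviation over all genes was -0.62 in primary tumour 4, -0.79 in metastasis 4-1 and -0.68 in metastasis 3-2, and -0.21 to 0.44 in the other 17. Of other small structured RNAs, leaving out Rmrp, by which the libraries were set apart, Rpph1 (67.1% GC) had a difference of -7.86 on the log2 scale, whereas the Y RNA Rny1 (43.8% GC) had 1.83.

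Exceptions stood on each side of the trend. Snora73a has 56.1% GC but a difference of 0.38, unlike its near-identical copy Snora73b at -4.17, and Snord88c has 64.4% GC with -0.02 on 85 counts. Snora73a overlaps an annotated exon of another gene on its strand, which Snora73b does not, so its reads may belong to that gene. Snord37, with 42.2% GC, had -1.64. These 3 were chosen after their values were seen. Within set 3, where both metastases share a primary tumour, metastasis 3-2 minus metastasis 3-1 had a rho with GC content of -0.64 over the 65 snoRNAs, with -5.88 for Snora78, -5.64 for Snora73b and 2.06 for Snord72. Removing each library's trend with GC over all genes left 7 of 48 snoRNAs risen in metastases, the same 5 with Snora34 and Snora57, beside 8.68% of all genes.

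**Figure D4:**
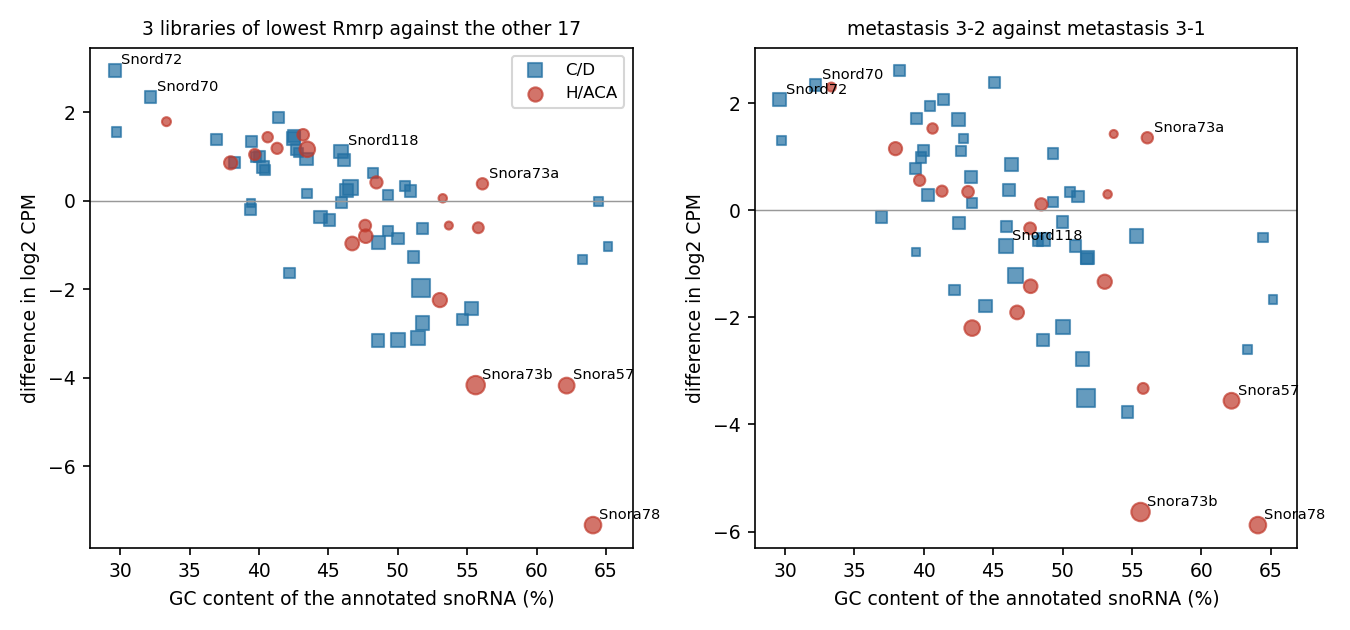
Difference in log2 CPM against GC content for each of 65 snoRNAs, for the 3 libraries of lowest Rmrp against the other 17 (left, medians) and for metastasis 3-2 against metastasis 3-1 (right); C/D are blue squares, H/ACA red circles, and larger symbols have more counts. Values fall with GC content in both panels, down to -7.33 and -5.88 for Snora78, and Snora73a stands above the trend.

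**Figure D5:**
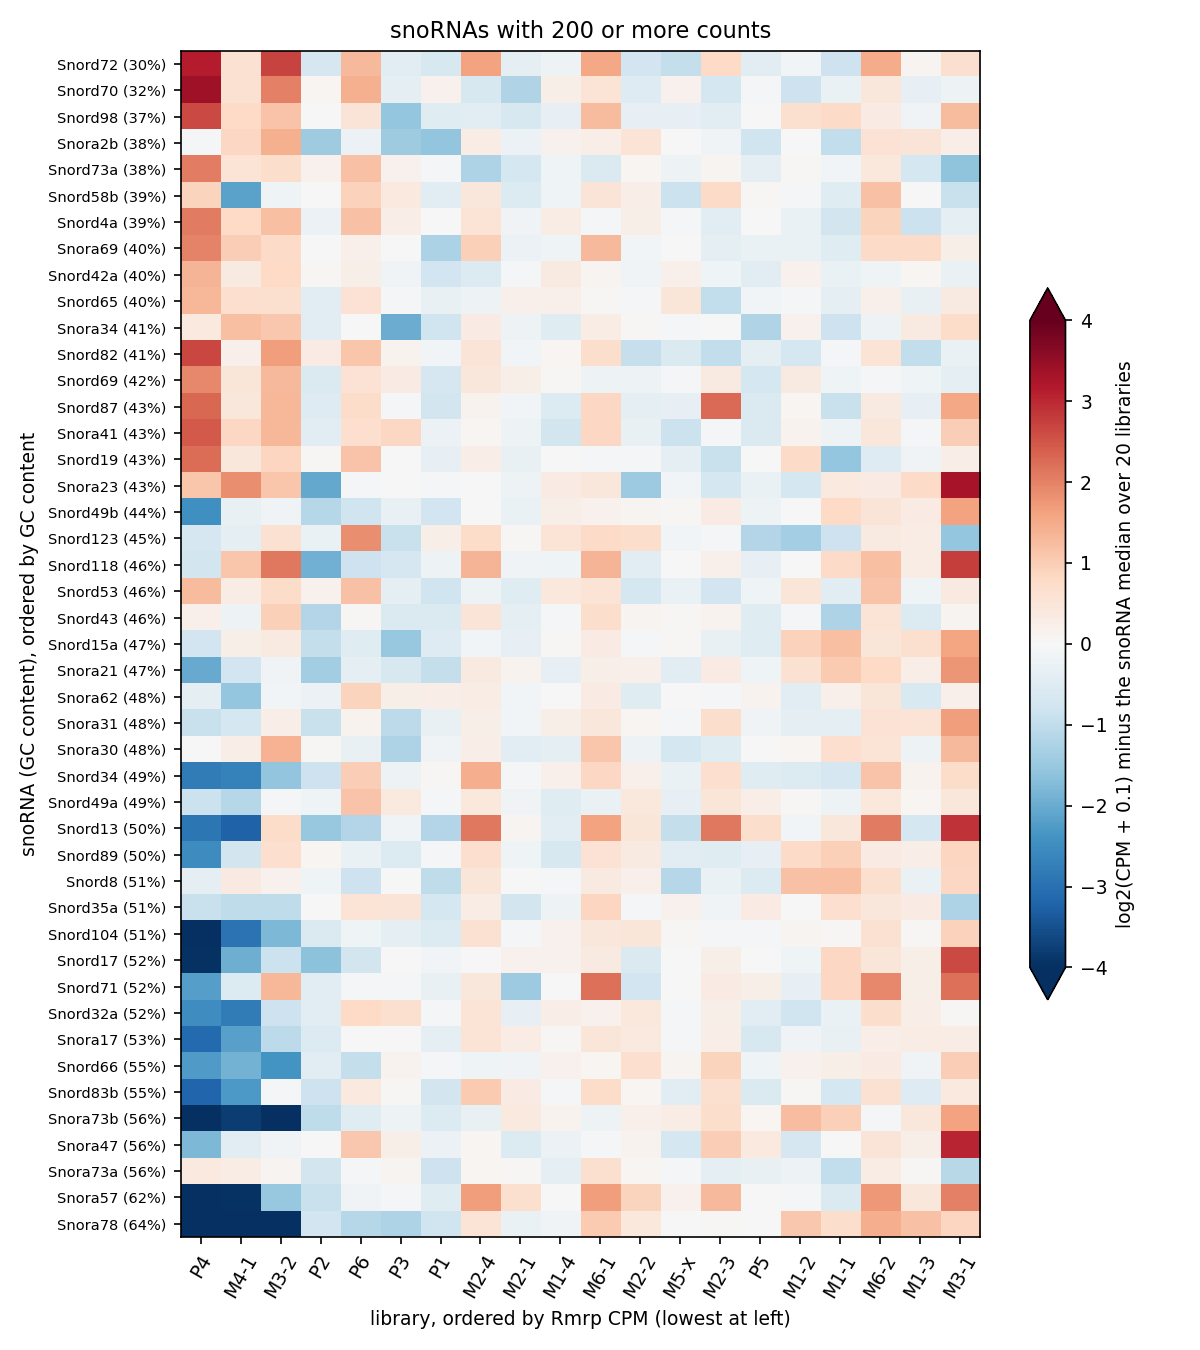
Level of the 45 snoRNAs with 200 or more counts in each library, as log2(CPM + 0.1) minus the median of that snoRNA over 20 libraries, with colours capped at the ends of the bar; rows run from low to high GC content and columns from low to high Rmrp. The 3 columns at the left turn from red at the AT-rich top to blue at the GC-rich bottom, and metastasis 3-1 at the right is high for many snoRNAs.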

How the data were processed

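Total RNA of 6 primary tumours and 14 lung metastases was sequenced from stranded libraries depleted of ribosomal RNA, per the labels' protocols. The submitters' processing notes name Trimmomatic 0.36, STAR (as 5.5.4b, doubtful as a STAR release), HTSeq and the mm10 build. The authors deposited raw read counts for each gene, unnormalized. Annotation release, counting mode and strand setting were not given in the sources used here. Antisense and overlapping genes may therefore share reads. No labelled step selects RNA by size, and CPM of short RNAs is a read share.

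Identifiers were matched to GENCODE symbols (51633 of 51826), coordinates, hosts and sequences. Counts were fitted with edgeR 4.0.16 in R 4.3.3: filterByExpr (minimum count 10), TMM, robust quasi-likelihood, the matched set as a block, 13 residual degrees of freedom, and Benjamini-Hochberg adjustment over all genes (threshold 0.05). CPM used TMM-scaled totals, and log2 CPM a prior count of 2. The pairing comes from the titles and the design text; deviations of same-set samples correlated at a mean of 0.0559 over 1000 genes. The closest libraries, metastases 6-1 and 6-2, differed beyond sampling noise (chi-square 29.3 per degree of freedom). In simulated counts (18233 genes), 2%, 16%, 76% and 92% of 50 genes changed 1.5-, 2-, 4- and 8-fold were recovered, with 3 of 96 calls false. These counts were drawn independently for each library, with no set effect and no GC trend. The rates may therefore not hold for the real libraries.

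Genes were named by rule: the 6 most abundant of each class, those past the threshold, the 3 of smallest p between sets, those nearest the 20-count rule, their hosts, the 3 snoRNA particle proteins of smallest p, and Rmrp, Rpph1, Rn7sk and Terc. The core proteins Fbl and Dkc1, Scarna6, Scarna17, Rny1, the other snoRNAs of shared hosts and the examples of GC content were chosen after their values were seen. Members and lists were chosen with earlier results of these data known. The 3 libraries of low Rmrp were set apart by the widest gap in log2 Rmrp. Alternatives were DESeq2 1.42.0, other scalings, filters, covariates, summed metastases and left-out sets; those without low-Rmrp libraries, without metastasis 3-1 or 3-2, or with the GC trend removed (25 bins), were chosen after seeing the data.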

Additional observations from a re-analysis of the deposited data

Results flagged for a closer look

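In 54 tests of groups of 4 to 10 samples, 3 held a sample far from the others; chance flags about 1 in 20 groups. Snord104, a C/D RNA with no annotated host, had 0.0509 CPM in primary tumour 4, and the other primary tumours had 2.16 to 3.13 CPM. Snora41 had 2.85 CPM in primary tumour 4, and the other primary tumours had 0.266 to 0.855 CPM. Primary tumour 4 is the library of lowest Rmrp; the GC content is 51.4% for Snord104 and 43.2% for Snora41. Rmrp had 7933 CPM in metastasis 1-3, and the other metastases of set 1 had 1976 to 2928 CPM.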

How the results depend on the processing

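The number of snoRNAs risen in metastases (5) moved to 10 with DESeq2, 3 with no filter on low counts, 8 with the muscle covariate, 1 with the lung covariate, 0 with summed metastases, 0 when scaled to the snoRNA sum, 10 without the 3 libraries of low Rmrp, and between 0 and 10 when each set was left out; 0 fell in any of these. Without the replicate block, 5 rose, the same as with the pairing, beside 6.62% of all genes. Over all genes, 2.84% were called higher with no filter, 3.06% when scaled to the snoRNA sum and 6.65% without set 4. With the GC trend removed and no block, 6 snoRNAs rose, beside 8.83% of all genes. With Rmrp as a covariate 4 rose, the same without Snora21, beside 6.64%. RLE, another library scaling, gave 5, beside 7.33%, and leaving out metastasis 3-1 gave 5, beside 6.64%. The shares for the other settings are given above. The log2 fold changes of Snord15a, Snord49b, Snord118, Snora21 and Snora2b stayed above 0 in all 19 alternatives, the lowest being 0.37. The snoRNA particle proteins risen (1) became 2 with DESeq2, 0 scaled to the snoRNA sum and 0 with the lung covariate. Those fallen (0) became 2 with Rmrp as a covariate, 3 scaled to the snoRNA sum, 3 with the muscle covariate, 1 without the 3 libraries, 2 with the GC trend removed, 2 with that and no block, and 0 to 1 with a set left out. Of all genes, the shares called lower were, in that order, 7.04%, 18.4%, 11.9%, 7.63%, 10.3%, 11.4% and 2.22% to 7.65%. Other small structured RNAs risen (2) became 1 without the block, 1 without the filter, 0 with summed metastases, 0 scaled to the snoRNA sum, 0 with the lung covariate, 6 without the 3 libraries, 1 with the GC trend removed and no block, and 1 to 5 with a set left out. Between sets, the 0 snoRNAs called became 13 with DESeq2, 1 without the filter, 3 with Rmrp as a covariate, 0 to 3 with a set left out, 9 without metastasis 3-1 and 2 without metastasis 3-2. Of all genes, 0.407% were called between sets without the filter, 7.46% with Rmrp as a covariate and 0.0% to 12.2% with a set left out. The mean log2 difference of summed H/ACA levels (0.89) was 0.38 without metastasis 3-1. Fewer samples enter the fits with sets or libraries left out or summed; otherwise the cause was not tested.

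Scaling to the snoRNA sum moves the median of all genes to -0.72, and this shift turned the sign of Snord104 (-0.093), Snord83b (-0.043), Snora73b (-0.023), Snora17 (-0.22), Snord72 (-0.28), Znhit3 (-0.28), Rn7sk (-0.36) and Terc (-0.12). With Rmrp as a covariate the sign reversed for Snora73b (-0.00081), Rpph1 (-0.52) and Terc (-0.57). Snora41 turned positive with the lung covariate (0.43), without the 3 libraries (0.13) and without set 4, its values ranging from -0.25 to 0.18 as each set was left out. Snord72 turned negative without the block (-0.40), with the muscle covariate (-0.18) and without set 3, ranging from -0.0070 to 0.89 as each set was left out. Low counts limit the smaller snoRNAs: 17 of 65 were not tested.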
